A study of Mus musculus with 28 samples.

Results

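The genes described here encode the subunits of voltage-gated sodium and calcium channels. They were chosen by symbol, as the autosomal protein-coding genes of GENCODE vM21 named *Scn* with a number and a or b, *Cacna1* with a letter, *Cacna2d1* to *Cacna2d4*, *Cacnb1* to *Cacnb4* or *Cacng1* to *Cacng8*. The rule took 39 of 20807 autosomal protein-coding genes, and no measured value entered it. They were 10 sodium channel pore subunits, 4 sodium channel beta subunits, 9 calcium channel pore subunits, 4 alpha2delta subunits, 4 calcium channel beta subunits and 8 gamma subunits.

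The study profiled histone marks in medium spiny neurons (MSNs) of the adult mouse striatum by ICuRuS, in which nuclei carrying a tagged nuclear membrane protein are captured on beads (INTACT) and chromatin under an antibody is cut out and sequenced (CUT&RUN, CnR). A2a nuclei came from striata of Sun1-sfGFP;A2a-cre mice and D1 nuclei from striata of Sun1-sfGFP;Drd1-cre mice, both of the C57BL/6J strain, males and females of about 8 weeks, with no treatment named in the labels, and each library was made from the striatum of a single mouse. Both lines carry the Sun1-sfGFP tag behind a stop cassette, so a nucleus belongs to A2a or D1 only by past or present activity of the Cre driver. Of 28 samples, 8 entered the 4 lists used here, 2 replicates each of A2a H3K4me3, D1 H3K4me3, A2a H3K27me3 and D1 H3K27me3. The labels of the D1 H3K27me3 samples conflict, with D1 in their title and cell type but A2a in their source name. Here they stand for D1, and each H3K27me3 comparison below rests on that choice.

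Voltage-gated sodium channels open on depolarization and carry the rising phase of the action potential, and their beta subunits set gating and membrane anchoring. Voltage-gated calcium channels admit calcium for transmitter release, dendritic signalling and muscle contraction, with alpha2delta and beta subunits that bring the pore to the membrane. The gamma family includes the transmembrane AMPA receptor regulatory proteins (TARPs). MSNs rest at a very negative potential and fire when cortical input is strong, so these genes set how they fire. H3K4me3 marks promoters that are active or ready to be, and H3K27me3, laid down by Polycomb, marks silenced genes and forms broad domains.

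A promoter here runs from 2 kb upstream to 1 kb downstream of the transcription start site (TSS), the annotated 5′ end of the gene. An overlap of 1 bp or more with the promoter or the gene body was enough for a peak or an island to count. Each H3K4me3 peak carries a fold enrichment over local background and a −log10 q, and each H3K27me3 island carries its number of reads. Percentiles rank a peak by −log10 q, or an island by reads, within its own list. The lists are not equal in size: A2a held 22551 peaks and 60191 islands over 301 Mb, at 73.4 reads per kb of island, and D1 held 20080 peaks and 45760 islands over 184 Mb, at 42.8 reads per kb. Each list pools its 2 replicates, so no value has a replicate error, no difference between A2a and D1 was tested, and the total depth behind each list is not known. Ranges beside reads per kb are exact Poisson 95% intervals and cover counting error only.

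The labelled cell types were checked at marker genes. The markers of striatal projection neurons *Ppp1r1b*, *Rgs9* and *Bcl11b* had promoter H3K4me3 and no H3K27me3 in either list. At the D1 markers *Drd1*, *Pdyn*, *Tac1* and *Isl1* the longest promoter island was 16.8 to 61 kb in A2a and 1 to 5.8 kb in D1, and at the A2a markers *Adora2a*, *Drd2*, *Penk* and *Gpr6* it was 0 to 3.4 kb in A2a and 7.8 to 45 kb in D1. Promoter H3K4me3 was called at all 8 of these markers in both lists, so its presence did not separate A2a from D1. Its percentile was 4.03 to 35.4 in A2a and 43.6 to 48.1 in D1 at the D1 markers. At the A2a markers it was 48.7 to 90.5 in A2a and 41.0 to 53.3 in D1. Of 4 markers each, promoter H3K4me3 was found in A2a and D1 at 2 and 2 for oligodendrocytes, 1 and 1 for astrocytes, 1 and 0 for microglia and 1 and 2 for cortical excitatory neurons. What other cells contributed to the values below was not tested.

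RefSeq promoter sequences (GRCm38.p6, the build of mm10, 250 bases before a start to 50 after it) were at hand for 29 of the 39 genes, as 40 windows. The 8 shown span the states found: a strong H3K4me3 promoter (*Scn2a*), the unmarked and the marked start of *Cacna1c*, windows under both marks in both lists (*Cacna1e*, *Cacng5*), one under both in A2a and under H3K4me3 alone in D1 (*Scn1a*), one under H3K27me3 in A2a (*Scn10a*) and one with neither mark (*Scn4a*, whose window lies at a start 3.90 kb into the gene). Each reads 5′ to 3′ on the strand of its gene, with CG dinucleotides in capitals. The windows lie at chr2:65620519-65620818 (plus strand), chr6:119196360-119196659 and chr6:119108446-119108745 (minus), chr1:154725871-154726170 (minus), chr11:107915006-107915305 (minus), chr2:66440788-66441087 (minus), chr9:119718983-119719282 (minus) and chr11:106349341-106349640 (minus).
Scn2a: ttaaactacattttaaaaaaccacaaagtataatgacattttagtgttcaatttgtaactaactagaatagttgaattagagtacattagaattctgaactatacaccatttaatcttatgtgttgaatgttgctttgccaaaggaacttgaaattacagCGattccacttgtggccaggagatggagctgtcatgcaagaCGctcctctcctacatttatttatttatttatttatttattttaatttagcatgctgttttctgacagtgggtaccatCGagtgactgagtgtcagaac
Cacna1c 5′ start: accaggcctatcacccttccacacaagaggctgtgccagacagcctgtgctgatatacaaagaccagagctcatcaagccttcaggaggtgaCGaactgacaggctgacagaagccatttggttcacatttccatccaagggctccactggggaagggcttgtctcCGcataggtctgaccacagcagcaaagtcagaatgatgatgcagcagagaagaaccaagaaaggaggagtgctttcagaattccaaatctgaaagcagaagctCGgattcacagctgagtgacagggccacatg
Cacna1c start 87.9 kb downstream: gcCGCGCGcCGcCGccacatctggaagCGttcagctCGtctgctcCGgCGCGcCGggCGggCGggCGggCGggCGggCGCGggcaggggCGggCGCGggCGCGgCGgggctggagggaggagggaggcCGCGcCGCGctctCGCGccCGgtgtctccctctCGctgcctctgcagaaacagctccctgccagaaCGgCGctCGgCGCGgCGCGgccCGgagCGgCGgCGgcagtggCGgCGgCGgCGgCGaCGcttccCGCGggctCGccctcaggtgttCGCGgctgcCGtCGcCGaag
Cacna1e start 158.6 kb downstream: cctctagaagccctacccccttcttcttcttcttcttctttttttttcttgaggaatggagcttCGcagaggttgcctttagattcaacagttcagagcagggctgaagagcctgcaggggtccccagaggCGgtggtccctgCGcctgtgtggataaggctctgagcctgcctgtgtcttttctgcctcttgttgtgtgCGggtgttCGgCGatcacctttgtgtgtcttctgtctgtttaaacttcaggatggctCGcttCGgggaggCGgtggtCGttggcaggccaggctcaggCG
Cacng5: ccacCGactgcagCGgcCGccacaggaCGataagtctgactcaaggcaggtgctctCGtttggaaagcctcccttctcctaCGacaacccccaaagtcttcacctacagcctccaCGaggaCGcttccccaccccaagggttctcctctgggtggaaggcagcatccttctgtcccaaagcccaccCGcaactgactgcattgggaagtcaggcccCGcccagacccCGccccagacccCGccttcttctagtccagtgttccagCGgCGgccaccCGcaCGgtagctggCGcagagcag
Scn1a: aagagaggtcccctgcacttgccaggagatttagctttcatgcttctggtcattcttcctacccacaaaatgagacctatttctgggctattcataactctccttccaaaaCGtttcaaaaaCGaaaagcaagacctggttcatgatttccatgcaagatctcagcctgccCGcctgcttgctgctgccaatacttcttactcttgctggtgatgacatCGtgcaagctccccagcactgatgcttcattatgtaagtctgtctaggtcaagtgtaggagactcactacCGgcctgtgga
Scn10a: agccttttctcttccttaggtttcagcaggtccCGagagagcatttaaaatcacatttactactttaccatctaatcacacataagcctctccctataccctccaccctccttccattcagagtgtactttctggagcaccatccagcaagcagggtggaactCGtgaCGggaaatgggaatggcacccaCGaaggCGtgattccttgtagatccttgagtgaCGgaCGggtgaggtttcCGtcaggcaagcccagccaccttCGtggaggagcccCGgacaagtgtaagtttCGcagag
Scn4a start 3.90 kb downstream: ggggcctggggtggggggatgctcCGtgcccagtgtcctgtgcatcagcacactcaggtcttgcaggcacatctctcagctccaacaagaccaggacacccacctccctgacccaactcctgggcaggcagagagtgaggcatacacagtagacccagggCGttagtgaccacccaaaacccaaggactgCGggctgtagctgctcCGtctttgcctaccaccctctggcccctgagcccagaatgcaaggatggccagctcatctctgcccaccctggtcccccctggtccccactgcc

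These windows differ widely in CG content. The marked *Cacna1c* start held 57 CG dinucleotides and the unmarked 5′ start of that gene held 3. *Scn2a* also held 3, although its H3K4me3 peak was among the strongest of the genes described. *Scn1a* held 5, *Scn10a* and the *Cacna1e* window 11 each, *Cacng5* 17 and *Scn4a* 4. Over the 40 windows the median was 10, against 7 over all 32851 windows in the table. The 24 windows under an H3K4me3 peak in both lists had a median of 23 (range 2 to 57), and the 16 under none in either list had a median of 4.5 (range 2 to 63). The last range ends at the *Cacna1d* window, with 63, which lies in a gap between 2 H3K4me3 peaks in each list, one of them at the next start. The 6 windows under an H3K27me3 island in A2a or D1 held 3 to 17. The windows of all genes were not split by mark, so these contrasts are not shown to be particular to the genes described.

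**Figure D1:**
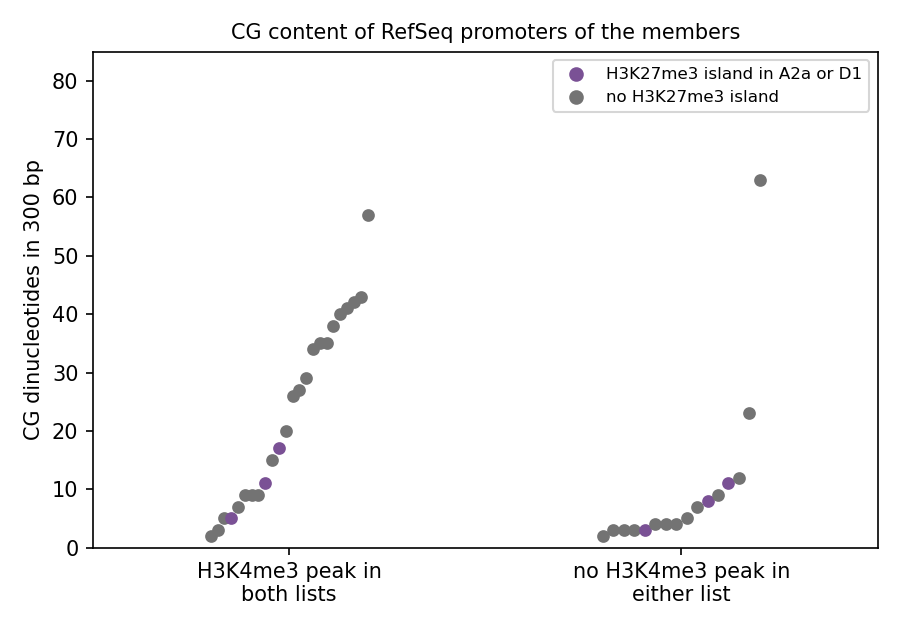
CG dinucleotides (vertical axis, count in 300 bp) in each of the 40 RefSeq promoter windows, grouped by whether an H3K4me3 peak of both lists or of neither overlapped the window, with windows under an H3K27me3 island in A2a or D1 in purple. Windows with an H3K4me3 peak have a median of 23 and those without have 4.5, while the 6 purple windows do not go above 17. Points are ordered by count within a group, and several windows belong to the same gene.

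Motifs were searched on both strands of the 300 bases. GGGCGG, the core of the GC box, was in 15 of the 40 windows (37.5%) and in 35.7% of all windows. CCAAT was in 9 (22.5%, against 37.4%) and TATAAA in 2 (5%, against 13.6%), at *Cacna1d* and at the second *Scn2a* start. GGACAGC, part of the site of the neuronal gene repressor REST, was in 2 (5%, against 6.56%), at *Cacnb1* and *Cacng6*. TTCAGCACC, the other part of that site, and TGACGTCA, the cAMP response element, were in none of the 40 windows, and in 0.371% and 1.79% of all windows. None of these motifs contains another.

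At the 5′ end of the gene, H3K4me3 was the more frequent mark, as it was over all genes. H3K4me3 was at the promoter of 28 of 39 genes in A2a (71.8%, against 59.3% of all genes tested) and of 27 in D1 (69.2%, against 56.8%). H3K27me3 was at 10 in A2a (25.6%, against 22.4%) and at 5 in D1 (12.8%, against 15.8%). The islands were fewer in D1, as they were over all genes. Both marks were at 6 in A2a (15.4%, against 9.84%) and at 4 in D1 (10.3%, against 5.79%). Genes with H3K4me3 alone numbered 22 in A2a (56.4%, against 49.4%) and 23 in D1 (59.0%, against 51%), those with H3K27me3 alone 4 (10.3%, against 12.6%) and 1 (2.56%, against 10%), and those with neither mark 7 (17.9%, against 28.2%) and 11 (28.2%, against 33.2%). The state was alike in both lists for 34 of 39 genes (87.2%, against 88.9%), and it differed for 5 (12.8%, against 11.1%). At *Scn10a*, *Scn11a* and *Cacng6* there was no H3K4me3 in either list, and an island was called in A2a and not in D1. *Cacna1s* had both marks in A2a and neither in D1. Promoter H3K27me3 was thus in A2a alone at 5 genes (12.8%, against 7.65%), in D1 alone at 0 (against 1.05%) and in both at 5 (12.8%, against 14.7%). H3K4me3 was in A2a alone at 1 (2.56%, against 2.61%) and in D1 alone at 0 (against 0.154%).

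H3K4me3 without H3K27me3 in both lists was the state of 22 genes (56.4%, against 48.3%). Among them were the sodium channel pores *Scn2a*, *Scn3a*, *Scn8a* and *Scn9a*, the sodium channel beta subunits *Scn2b*, *Scn3b* and *Scn4b*, the calcium channel pores *Cacna1b*, *Cacna1h* and *Cacna1i*, *Cacna2d1*, *Cacna2d2* and *Cacna2d3*, *Cacnb1*, *Cacnb2* and *Cacnb4*, and the TARPs *Cacng2*, *Cacng3*, *Cacng4*, *Cacng7* and *Cacng8*. Both marks in both lists were found at *Cacna1e*, *Cacna1g*, *Cacng5* and *Scn1a* (4 genes, 10.3%, against 5.42%). *Cacnb3* carried H3K27me3 alone in both. Neither mark was found in either list at *Cacna1a*, *Cacna1c*, *Cacna1d*, *Cacna2d4*, *Cacng1*, *Scn4a* and *Scn7a* (7 genes, 17.9%, against 27.4%).

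Where H3K4me3 was present, each gene was read by its longest promoter peak, its highest fold and its highest percentile, which need not be of the same peak where a promoter held several. The median longest promoter peak was 2226 bp in A2a (n = 28) and 2149 bp in D1 (n = 27), against 1624 and 1520 bp over all genes with a promoter peak. The median highest fold enrichment was 5.29 in A2a and 5.12 in D1, against 7.67 and 7.52. The median highest percentile was 65.1 in A2a and 55.0 in D1, against 72.8 and 71.6. Medians that were longer, less enriched and lower in rank than over all genes were also found for glutamate and GABA receptor genes and for potassium channel genes. For the receptor genes with a promoter peak (30 in A2a and 29 in D1, of 41) they were 2446 and 2153 bp, 4.47-fold and 4.35-fold, and percentiles 66.3 and 55.6, in A2a and D1. For the potassium channel genes with one (67 in each list, of 95 with symbols *Kcn* or *Hcn*) they were 1941 and 1775 bp, 5.79-fold and 4.99-fold, and percentiles 61.1 and 59.3. Of the 27 genes with a peak in both lists, 21 ranked higher in A2a (65.4% over all genes) and 20 had the longer peak in A2a (81.4%), and 19 had the higher fold there (59.2%). A gap of at least 20 percentile points in favour of A2a was found at *Scn1a* and *Cacnb1* (5.45% over all genes) and in favour of D1 at none (2.58%).

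**Figure D2:**
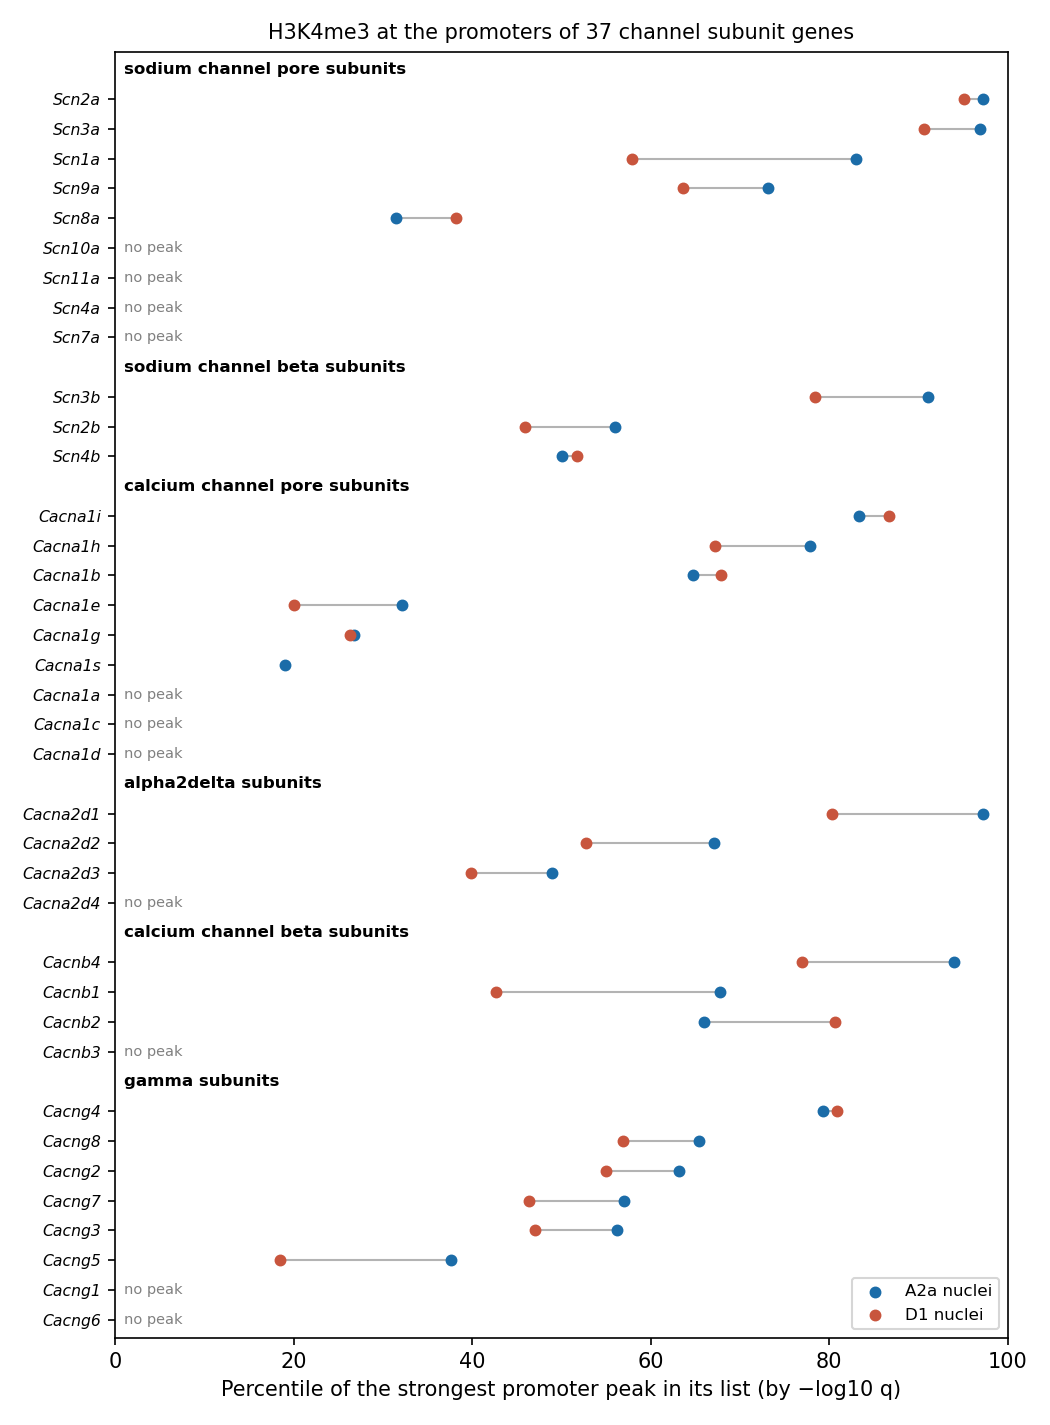
Percentile of the strongest promoter H3K4me3 peak of 37 of the 39 genes within its own list (horizontal axis, ranked by −log10 q), with A2a in blue and D1 in red, grouped by subunit class. *Scn2a*, *Scn3a*, *Cacna1i* and *Cacna2d1* lie at 80.3 or above in both lists, *Scn1a* and *Cacnb1* have the widest gaps, and 11 genes in A2a and 12 in D1 had no promoter peak.

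Among the sodium channel pore subunits, 6 of 10 had promoter H3K4me3 in both lists, and *Scn4a*, *Scn7a*, *Scn10a* and *Scn11a* had none in either. *Scn2a*, a main sodium channel of the axon, had 7.67-fold enrichment at percentile 97.2 in A2a and 7.02-fold at 95.2 in D1. *Scn3a*, best known from the developing brain, had 6.48-fold enrichment at percentile 96.9 in A2a and 6.03-fold at 90.6 in D1. *Scn9a*, known from sensory and sympathetic neurons, had 9.90-fold enrichment at percentile 73.1 in A2a and 7.59-fold at 63.7 in D1. All 3 are neighbours of *Scn1a* and *Scn7a* on chromosome 2, and *Scn7a*, which encodes a sodium-sensing channel, had no peak anywhere in its body. *Scn8a*, the channel of the axon initial segment, had a weak peak of 412 bp in A2a and 418 bp in D1 at its 5′ end, with 2.23-fold enrichment at percentile 31.4 in A2a and 2.93-fold at 38.2 in D1. A longer peak of 2391 bp in A2a and 2315 bp in D1 lay over a coding start 1.56 kb further on, at percentiles 71.5 and 71.1. The rank of *Scn8a* thus depended on the start that was read.

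*Scn1a* (chr2:66270778-66440840, minus strand), the sodium channel best known from fast-spiking interneurons, had 9.27-fold enrichment at percentile 83.0 in A2a and 7.58-fold at 57.9 in D1 at its 5′ end. It also had an island in each list, but not at one place. The A2a island ran from -0.560 to 2.44 kb of the TSS and was 3 kb with 203 reads, or 67.7 reads per kb (58.7 to 77.6), at percentile 47.6. The D1 island ran from -3.16 to -1.96 kb and was 1.20 kb with 54 reads, or 45 reads per kb (33.8 to 58.7), at percentile 3.88. The D1 island reached the promoter window by 40 bp and did not touch the H3K4me3 peak, whereas the A2a island covered the peak and the TSS. A second start 30.8 kb into the gene carried a stronger H3K4me3 peak, at percentile 98.8 in A2a and 91.4 in D1, without an island.

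*Scn10a* and *Scn11a* lie side by side on chromosome 9 and encode channels of nociceptive sensory neurons. Both had a promoter island in A2a and none in D1. *Scn10a* (chr9:119608456-119719322, minus strand) had no H3K4me3 peak in either list, and its A2a promoter island was 3.40 kb with 179 reads, or 52.6 reads per kb (45.2 to 60.9). *Scn11a* (chr9:119753759-119825456, minus strand) had no peak either, and its A2a promoter island was 3 kb with 167 reads, or 55.7 reads per kb (47.5 to 64.8). By reads, these islands were in the lower part of the A2a list, at percentiles 39.2 and 34.3.

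The difference went on into the bodies of these genes. Islands covered 36.7% of *Scn10a* in A2a and 7.94% in D1, as 9 islands and 4. *Scn11a* had 7.05% in A2a and no island in D1. By contrast *Scn7a* was covered over 3.05% in A2a and 6.10% in D1. *Scn4a*, the channel of skeletal muscle, had no peak and no island in its promoter or body in any of the 4 lists.

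**Figure D3:**
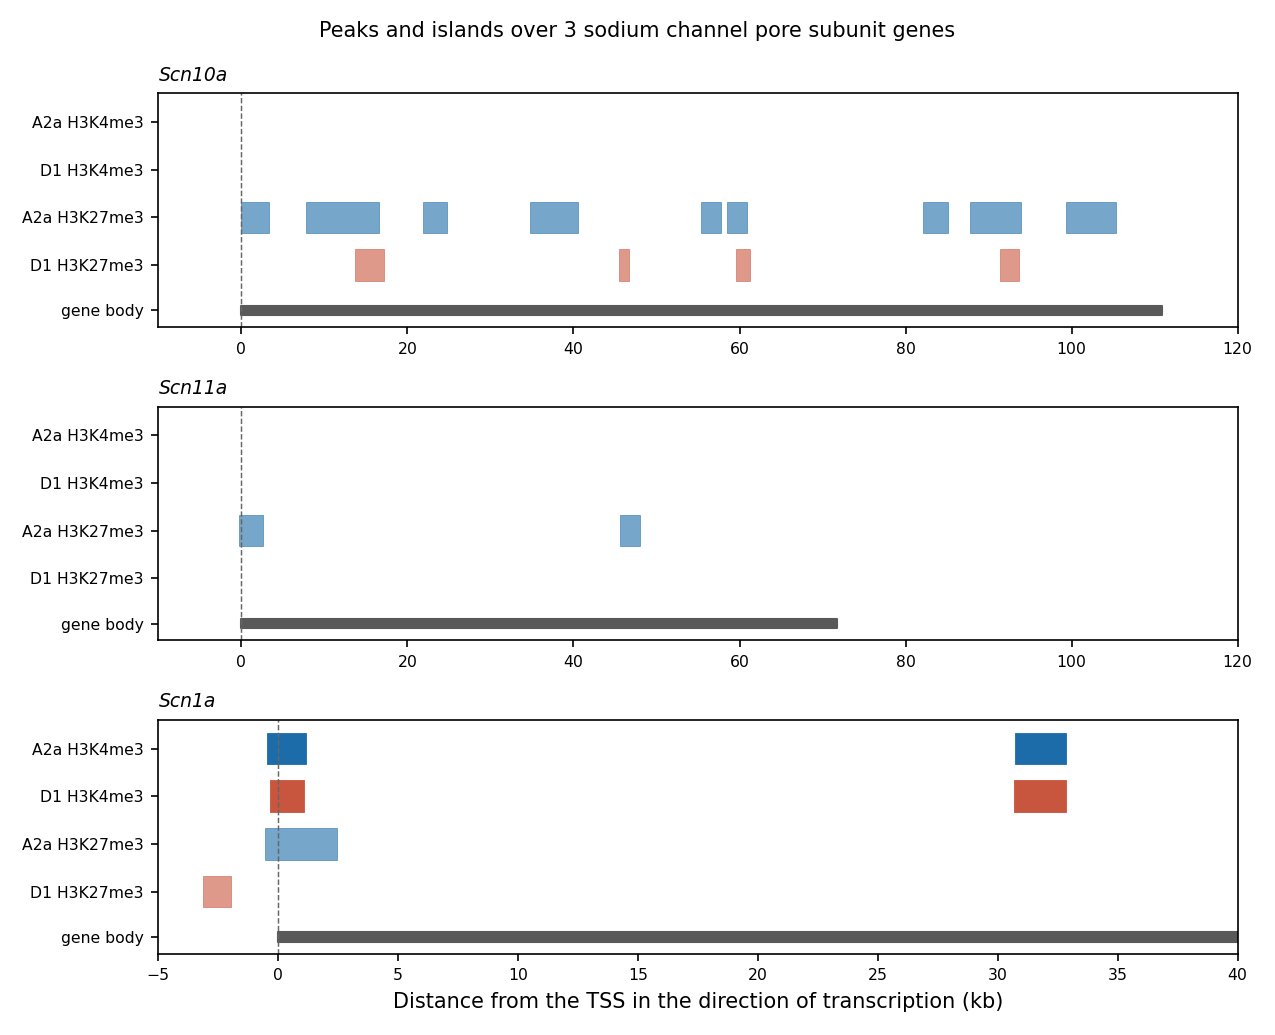
H3K4me3 peaks (dark bars) and H3K27me3 islands (light bars) of A2a (blue) and D1 (red) that overlap the promoter or body of *Scn10a*, *Scn11a* and *Scn1a*, by distance from the TSS in kb. *Scn10a* carries 9 islands in A2a against 4 in D1, and the islands of *Scn1a* lie on different sides of the TSS. The *Scn1a* panel shows the first 40 kb of the gene.

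The sodium channel beta subunits *Scn2b*, *Scn3b* and *Scn4b* had H3K4me3 alone at their promoters in both lists. *Scn3b* had 5.42-fold enrichment at percentile 91.1 in A2a and 5.12-fold at 78.4 in D1. *Scn2b* had 4.85-fold enrichment at percentile 56.0 in A2a and 4.27-fold at 45.9 in D1. Both ranked higher in A2a. *Scn4b*, a subunit abundant in the striatum, had 3.12-fold enrichment at percentile 50.0 in A2a and 3.53-fold at 51.7 in D1. Its peak was long, at 3455 bp in A2a and 3499 bp in D1, so that a wide peak went with a low fold. It ranked slightly higher in D1.

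Among the calcium channel pore subunits, the T-type channels, which open at low voltage, were not alike. *Cacna1i* had 6.57-fold enrichment at percentile 83.3 in A2a and 6.98-fold at 86.7 in D1, and *Cacna1h* had 5.29-fold enrichment at percentile 77.8 in A2a and 4.93-fold at 67.2 in D1. The third, *Cacna1g*, had both marks. The N-type gene *Cacna1b*, which supports transmitter release, had 7.26-fold enrichment at percentile 64.7 in A2a and 7.26-fold at 67.8 in D1.

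*Cacna1e* (chr1:154390731-154884501, minus strand), which encodes the R-type channel, was the one gene whose promoter island held more reads in D1. The annotated starts under this island, at the TSS and 0.477 kb into the gene, belong to transcripts not annotated as protein-coding. The A2a island was 8.40 kb with 766 reads, or 91.2 reads per kb (84.8 to 97.9), at percentile 92.0. The D1 island was 16 kb with 925 reads, or 57.8 reads per kb (54.1 to 61.7), at percentile 98.4. Reads in A2a over reads in D1 came to 0.828, where the median over the 3069 genes with promoter islands in both lists was 2.61 and 2.02% had more reads in D1. It was also the one of 5 members whose promoter island was longer in D1 (17.2% of the 3069). Reads per kb were higher in A2a at all 5 (0.489% of the 3069 were higher in D1). Over all islands they were 73.4 in A2a and 42.8 in D1, and reads are not scaled by depth. Whether the D1 island at *Cacna1e* was also denser relative to its list was therefore not tested. For the other 4 the ratio of reads was 2.38 at *Cacna1g*, 2.01 at *Cacnb3*, 4.22 at *Cacng5* and 3.76 at *Scn1a*.

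Further islands ran along the first part of the *Cacna1e* body. The longest spanned 30.1 to 64.5 kb in A2a, all within introns, with 3427 reads at percentile 99.3. In D1 it spanned 25.9 to 68.3 kb and held 2956 reads at percentile 99.8. Islands covered 12.2% of the body in A2a and 17.7% in D1. H3K4me3 at the 5′ end had 4.79-fold enrichment at percentile 32.1 in A2a and 4.32-fold at 20 in D1. A wider peak of 3941 bp in A2a and 3821 bp in D1 lay at coding starts 158.1 and 158.6 kb into the gene, at percentiles 58.7 and 52.7. There too an island overlapped it, of 2.40 kb with 151 reads, or 62.9 reads per kb (53.3 to 73.8) in A2a and 3.40 kb with 95 reads, or 27.9 reads per kb (22.6 to 34.2) in D1. The gene thus had both marks at 2 sets of starts in both lists, and the sequence of the downstream one is printed above.

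*Cacna1g* (chr11:94408391-94474198, minus strand) had both marks at its promoter in both lists and islands along much of its body. Its promoter island was 8.20 kb with 860 reads, or 105 reads per kb (98.0 to 112) in A2a and 8 kb with 362 reads, or 45.2 reads per kb (40.7 to 50.2) in D1, at percentiles 93.3 and 92.9, with nearly the same edges. Islands covered 55.9% of the body in A2a and 42.8% in D1, as 7 in each list. The H3K4me3 peak at the TSS was short, 915 bp in A2a and 401 bp in D1, and had 4.86-fold enrichment at percentile 26.7 in A2a and 5.03-fold at 26.2 in D1.

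*Cacna1s* (chr1:136052750-136119822, plus strand), the L-type channel of skeletal muscle, had islands over 80.5% of its body in A2a and 56.4% in D1. Coverage of at least 50% of the body was found at *Cacna1g* and *Cacna1s* in A2a (9.31% of all genes) and at *Cacna1s* in D1 (4.95%). The longest island was 22.6 kb with 1945 reads, or 86.1 reads per kb (82.3 to 90.0) in A2a and 11.8 kb with 508 reads, or 43.1 reads per kb (39.4 to 47.0) in D1. Its own start was bare. The promoter calls in A2a came from a peak at -2.33 to -1.23 kb (5.08-fold, percentile 19.1) and an island at -3.95 to -1.15 kb of 2.80 kb with 185 reads, or 66.1 reads per kb (56.9 to 76.3). Both covered the start of *Ascl5*, a neighbouring gene, so the change of state at *Cacna1s* was not one at its own TSS.

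**Figure D4:**
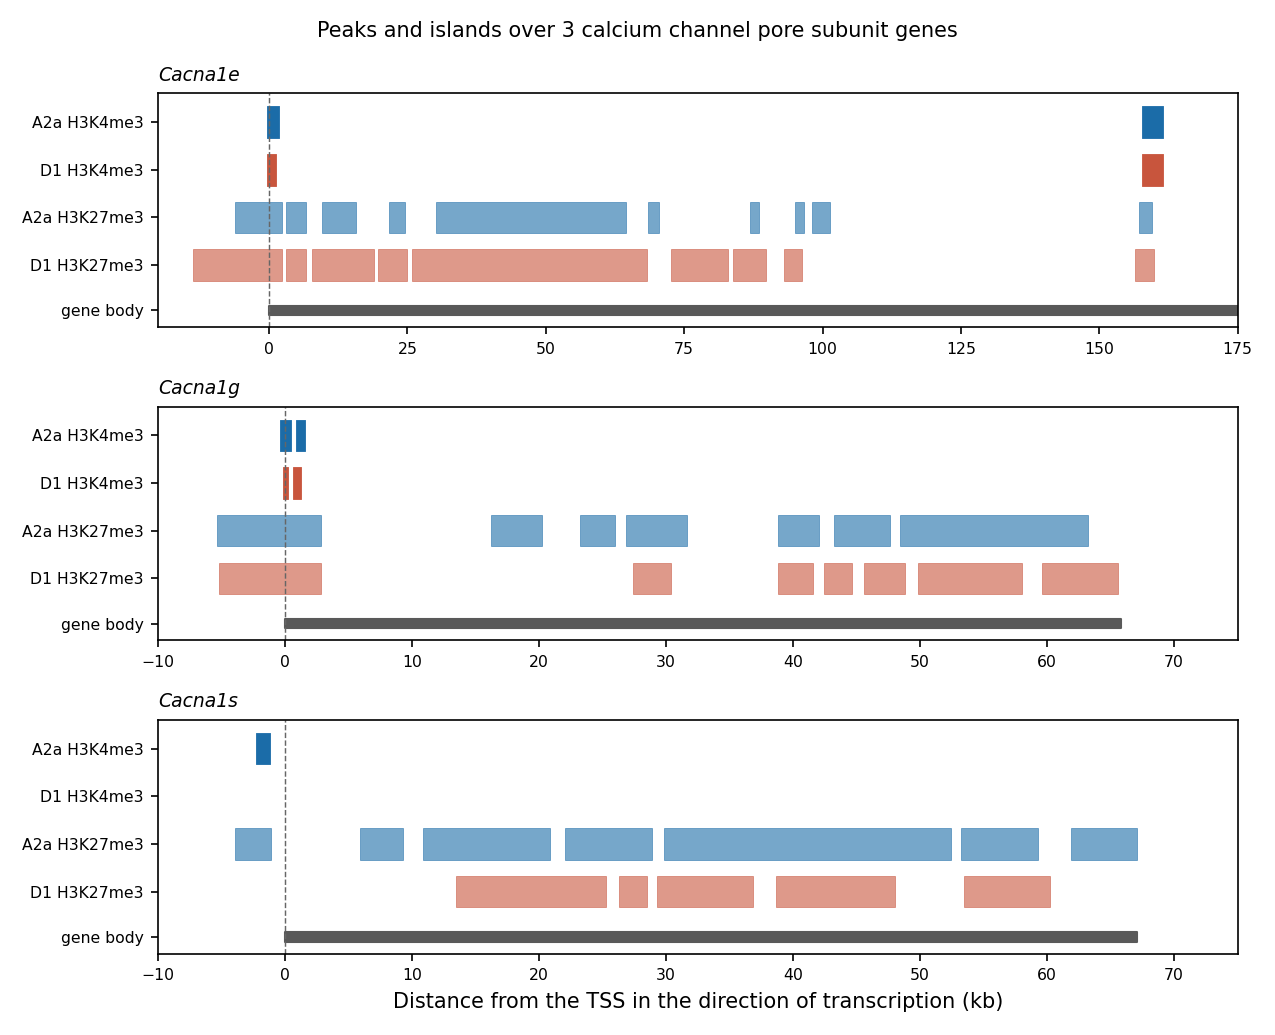
H3K4me3 peaks (dark bars) and H3K27me3 islands (light bars) of A2a (blue) and D1 (red) that overlap the promoter or body of *Cacna1e*, *Cacna1g* and *Cacna1s*, by distance from the TSS in kb. The promoter island of *Cacna1e* reaches further upstream in D1, to -13.7 kb against -6.10 kb in A2a. *Cacna1s* carries 6 separate islands between 5.85 kb and 67.1 kb in A2a, which cover 54 kb. The *Cacna1e* panel leaves out the 3′ part of the gene, which held no island and no further peak over a start.

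The remaining calcium channel pores *Cacna1a* (P/Q-type), *Cacna1c* and *Cacna1d* (L-type channels of brain and heart) had no mark at the annotated 5′ end. Their strongest H3K4me3 peaks over starts of their own lay at coding starts further in. At *Cacna1c* the peak lay 88.2 kb into the gene, with 2986 bp at percentile 91.0 in A2a and 2861 bp at 70.3 in D1. An A2a island of 1 kb with 74 reads, or 74 reads per kb (58.1 to 92.9) lay within the same stretch, among the weakest of its list at percentile 0.393. *Cacna1d* had a peak at starts 138.4 kb in, at percentile 96.1 in A2a and 80.8 in D1. At *Cacna1a* it lay at starts 26.9 kb in, at percentiles 76.7 and 64.8. When any annotated start was read, 33 of the 39 genes had H3K4me3 in A2a (84.6%, against 63.1% of all genes) and 32 in D1 (82.1%, against 60.5%). Genes with many annotated starts have more chances to be counted this way.

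The alpha2delta subunits, *Cacna2d1* and *Cacna2d2* of which bind gabapentin, carried no island at the promoter. *Cacna2d1* had 5.40-fold enrichment at percentile 97.3 in A2a and 4.43-fold at 80.3 in D1, the highest rank of all 39 genes in A2a. *Cacna2d2* had 5.28-fold enrichment at percentile 67.1 in A2a and 5.35-fold at 52.7 in D1. *Cacna2d3* had 2.73-fold enrichment at percentile 48.9 in A2a and 2.55-fold at 39.8 in D1, over 1 peak of 4611 bp in A2a, and 2 peaks in D1, of 3155 and 1259 bp, on either side of the TSS. No other of the 12331 genes with a promoter peak in A2a had a longer one. *Cacna2d4*, known from the retina, had no mark at its 5′ end, and an A2a island began 0.275 kb beyond its promoter window. H3K4me3 at its starts 94.2 kb in, percentile 89.8 in A2a and 72.8 in D1, lay also over the start of *Lrtm2*.

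Among the calcium channel beta subunits, promoter H3K4me3 ranked higher in A2a at *Cacnb4* and *Cacnb1* and higher in D1 at *Cacnb2*. *Cacnb4* had 6.66-fold enrichment at percentile 93.9 in A2a and 5.55-fold at 76.9 in D1. *Cacnb1* had 4.64-fold enrichment at percentile 67.8 in A2a and 2.98-fold at 42.7 in D1. *Cacnb2* had 4.34-fold enrichment at percentile 66.0 in A2a and 5.38-fold at 80.7 in D1, the largest lead of D1 among the 39 genes. *Cacnb3* (chr15:98630840-98644529, plus strand) had an island that overlapped its promoter window in both lists. It was 2.60 kb with 211 reads, or 81.2 reads per kb (70.6 to 92.9) in A2a and 2.40 kb with 105 reads, or 43.8 reads per kb (35.8 to 53.0) in D1. The A2a island ended upstream of the TSS, and the D1 island covered the TSS and 0.161 kb of the body. H3K4me3 at *Cacnb3* lay at starts 1.54 and 3.93 kb downstream, the second with 4.98-fold enrichment at percentile 74.9 in A2a and 4.32-fold at 54.6 in D1. The islands and these peaks did not overlap, so at *Cacnb3* the marks were next to each other.

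In the gamma family, the 6 TARP genes had H3K4me3 in both lists, and *Cacng1* and *Cacng6* had none. *Cacng4* had 6.32-fold enrichment at percentile 79.4 in A2a and 6.73-fold at 80.9 in D1, and *Cacng8* had 5.15-fold enrichment at percentile 65.4 in A2a and 5.21-fold at 56.9 in D1. *Cacng7* had 6.14-fold enrichment at percentile 57.1 in A2a and 5.78-fold at 46.4 in D1, and *Cacng3* had 3.67-fold enrichment at percentile 56.2 in A2a and 3.46-fold at 47.1 in D1. *Cacng2*, or stargazin, had a peak of 4093 bp in A2a and 3931 bp in D1, at percentiles 63.1 and 55.0. *Cacng1*, a subunit of the skeletal muscle calcium channel, had no promoter mark, and one A2a peak of 574 bp within its body.

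*Cacng5* (chr11:107874605-107915055, minus strand), a TARP, had both marks in both lists and less of each in D1. Its island was 4.80 kb with 346 reads, or 72.1 reads per kb (64.7 to 80.1) in A2a and 2.20 kb with 82 reads, or 37.3 reads per kb (29.6 to 46.3) in D1, at percentiles 73.9 and 30.8. The strongest peak was 2056 bp in A2a and 606 bp in D1, and had 5.85-fold enrichment at percentile 37.6 in A2a and 4.19-fold at 18.4 in D1. Body coverage was 16.0% in A2a and 0.630% in D1. *Cacng6* (chr7:3424195-3435667, plus strand), related to *Cacng1*, had no peak in either list and an island of 4.40 kb with 258 reads, or 58.6 reads per kb (51.7 to 66.2) in A2a alone, at percentile 61.3. *Cacng6*, *Cacng7* and *Cacng8* lie together on chromosome 7, so a gene under H3K27me3 stood beside 2 under H3K4me3.

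Over gene bodies, H3K4me3 was found at 33 of 39 genes in A2a (84.6%, against 64.5% of all genes) and at 32 in D1 (82.1%, against 61.8%), and *Cacng1* made the difference. H3K27me3 was found at 13 of 39 genes in A2a (33.3%, against 28.7%) and at 9 in D1 (23.1%, against 21.7%). It was in A2a alone at 6 (15.4%, against 8.22%) and in D1 alone at 2, *Cacna2d2* and *Cacnb3* (5.13%, against 1.26%). In both of these the covered stretch was short, 1.70% and 1.18% of the body. Of the 15 genes with any body island, *Cacna1e*, *Cacna2d2*, *Cacnb3* and *Scn7a* had more of the body covered in D1 (4 of 15, and 13.8% over all genes with a body island). The other small values were 2.04% at *Cacna1d*, 2.07% at *Cacna2d4*, 1.43% at *Scn1a* and 0.164% at *Cacna1c*, all in A2a with 0 in D1, and *Cacng6* had 14.0% in A2a.

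**Figure D5:**
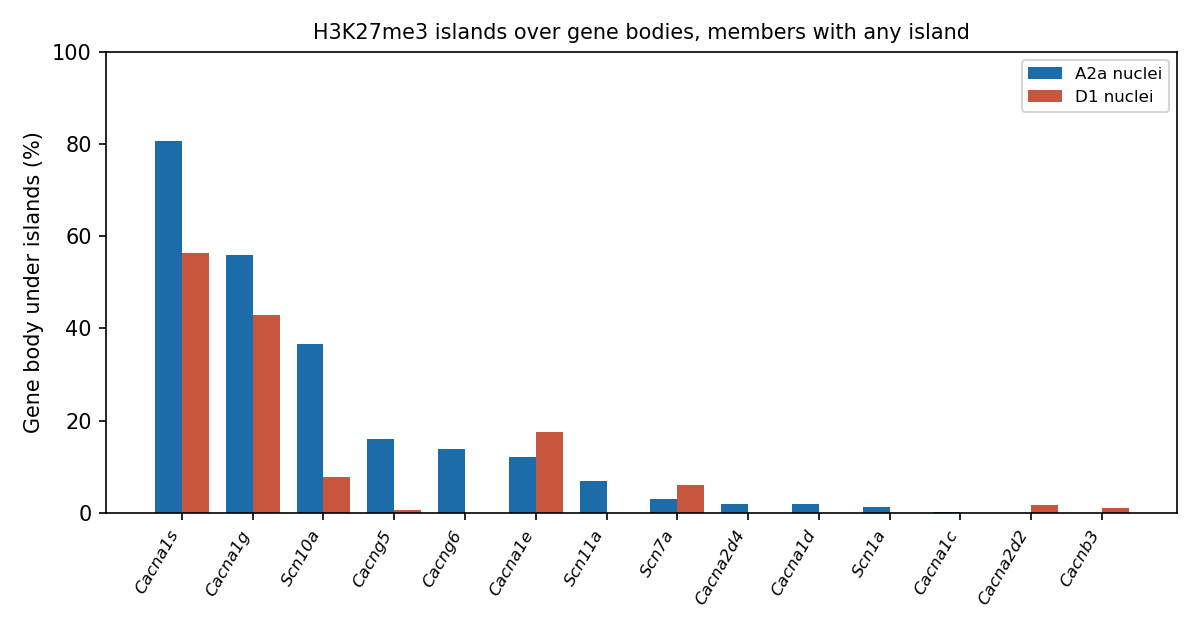
Share of the gene body under H3K27me3 islands (vertical axis, %) in A2a (blue) and D1 (red), for 14 of the 15 genes with an island in the body in either list. *Cacna1s* and *Cacna1g* are covered most in both, *Scn10a* has 36.7% in A2a and 7.94% in D1, and *Cacna1e* is covered more in D1.

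The promoter islands of these genes had a median percentile of 48.8 in A2a and 50.9 in D1, against 83.0 and 83.9 over all genes with a promoter island. Single values were spread widely about these medians. Among those given here they ran from 34.3 at *Scn11a* to 93.3 at *Cacna1g* in A2a. In D1 they ran from 3.88 at *Scn1a* to 98.4 at *Cacna1e*. The median length of the longest was 3.2 kb in A2a (n = 10) and 2.4 kb in D1 (n = 5), against 6.2 and 4.8 kb over all such genes and 3.6 and 3 kb over all islands of each list. The 44 potassium channel genes with a promoter island in A2a, of 95, had a median percentile of 87.5, and the 10 of 41 glutamate and GABA receptor genes had 86.4. H3K27me3 was at 46.3% of the potassium channel promoters and 24.4% of the receptor promoters in A2a, and at 31.6% and 19.5% in D1. H3K4me3 was at 70.5% and 73.2% in A2a and at 70.5% and 70.7% in D1. The shares with H3K4me3 lay closer together than those with H3K27me3. Differences between these families were not tested.

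Proteins that bind, hold or resemble these channels were read as a further list of 32 genes, among them calmodulins, ankyrins, fibroblast growth factor homologues, STAC adaptors, RGK GTPases and the NALCN complex. H3K4me3 was at 26 of their promoters in A2a (81.2%, against 59.3% of all genes) and 24 in D1 (75%, against 56.8%). H3K27me3 was at 8 in A2a (25%, against 22.4%) and 7 in D1 (21.9%, against 15.8%). Both marks were at 6 in A2a (18.8%, against 9.84%) and 5 in D1 (15.6%, against 5.79%). The state differed between lists for 5 of 32 (15.6%, against 11.1%).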

How the data were processed

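H3K4me3 and H3K27me3 were profiled by CnR in INTACT-purified A2a and D1 nuclei, with 2 replicates per cell type and antibody. Alignment by the authors was to mm10 with bowtie2 (version 2.1.0). Read pairs below a mapping quality of 20, duplicates and inserts outside 150 to 500 bp were dropped. For H3K4me3 (Abcam antibody) the authors ran MACS2 with q below 0.01. Deposited with each peak were its fold enrichment, a ratio to local background, and its −log10 q. For H3K27me3 (Active Motif antibody) the authors ran SICER (window 200 bp, gap 600 bp, false discovery rate 0.01). Deposited with each island was a count of its reads, not scaled by depth. The control library of SICER is not given in the sources used here. That each H3K4me3 list pools both Abcam replicates was taken from the study's methods and from there being 1 list per cell type. The other 20 of 28 samples were not analysed here. Values of 2 of the 39 genes and of 1 marker gene are not reported here, though counts over all 39 include these genes.

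Genes and transcripts were taken from GENCODE vM21 and coordinates are mm10, counted from 1. Overlaps were computed in Python (version 3.11.15) with numpy (version 2.4.6), intervals with scipy (version 1.17.1) and plots with matplotlib (version 3.10.9). The overlap procedures were tested on simulated data. Each gene's strongest promoter peak was that of highest −log10 q. Values were read in full for genes with a promoter state that differed between lists, with both marks, or with islands over at least 50% of the body. Of the other genes, those with the 2 highest and the 2 lowest H3K4me3 percentiles in each subunit class were added. The downstream starts, the values of *Cacng2*, *Cacnb3* and *Cacna2d4* and the printed promoters go beyond this rule and were picked once values were known. The members and lists were chosen with earlier results of these data known. The 14 counts were recomputed under 92 alternatives.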

Additional observations from a re-analysis of the deposited data

How the results depend on the processing

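The 14 counts of channel subunit genes were recomputed under 9 other settings, 92 values in all, and 84 stayed within 1.5 times the value reported. The shares over all genes were not recomputed, so these settings do not show whether the contrasts with all genes hold. The 8 that moved were small counts of genes marked in 1 list alone. H3K4me3 in A2a alone, 1 gene as reported, became 0 with a promoter of 1 kb on each side, 2 with an overlap of at least 200 bp, 2 with peaks of a −log10 q of at least 5, and 3 when the base of the TSS itself had to be covered, a setting added after seeing the data. With that last setting H3K4me3 and H3K27me3 in D1 alone each rose from 0 to 1. The same setting lowered the number of promoters with H3K4me3 from 28 to 21 in A2a and from 27 to 19 in D1, within the 1.5 times. With 5 kb on each side, H3K27me3 in A2a alone went from 5 to 8 and in D1 alone from 0 to 1. With the A2a list cut to as many islands as the D1 list holds, H3K27me3 in A2a alone stayed at 5. This cut kept the 45760 of 60191 A2a islands with the most reads. The A2a promoter islands of these genes all ranked above it, the lowest at percentile 32.1, so the count was bound to stay at 5. Whether the unequal list sizes bear on the calls in A2a alone was therefore not tested.

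No paired analysis was possible because each list pools its replicates, and no setting leaves out a replicate for that reason. The lists hold no library totals, so a difference in calls between A2a and D1 cannot be told apart from one in depth, Islands called separately in each list differ in edges, so reads were given with length. Several genes share a cluster and are not independent.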
